A study of Mus musculus with 9 samples.

Results

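The liver genes described here are 10 markers of zonation, the division of labour between hepatocytes near the central vein and those near the portal triad. The pericentral markers were Glul, Oat, Cyp1a2, Rhbg, Slc1a2 and Axin2, and the periportal markers were Gls2, Hal, Sds and Cyp2f2. They were found by gene name in the deposited table of gene levels, where 9 of the 10 had an entry of their own among the 26345 named entries that contain an annotated transcript. Rhbg had none, since its transcript sits in an entry named Tsacc. The levels came from the livers of 3 pair-fed mice (PF) on an isocaloric control liquid diet, 3 alcohol-fed mice (AF) on the Lieber-DeCarli diet, an ethanol-containing liquid diet, and 3 mice on that diet which also received MNA at 50 mg/kg by daily intraperitoneal injection (AF with MNA). The labels give an age of 8 weeks and a feeding time of 5 weeks for every group. The labels do not spell out MNA, and they give the strain as C57BL/6 for PF and AF and as C57BL/7, C57BL/8 and C57BL/9 for the 3 AF with MNA libraries, while the methods name a single strain of male mice, fasted before they were killed. By those methods PF and AF model one strain, one sex and the fasted liver.

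Blood enters the liver lobule at the portal triad and leaves by the central vein, so oxygen and nutrients decline along its path. Periportal hepatocytes break down glutamine and other amino acids and make urea, and a narrow rim of pericentral hepatocytes captures the remaining ammonia by making glutamine. Wnt ligands released by the endothelium of the central vein keep β-catenin signalling high in that rim, and much of the oxidation of ethanol takes place in pericentral cells.

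Total reads, recovered from the scaling of circular RNA counts, lay between 57800660 and 82179248 per library. Levels are in FPKM, a fragment count scaled to transcript length and library size, so they can be compared between genes. Each library was whole liver, so a smaller number of zone cells and less RNA per cell cannot be told apart. The 5 hepatocyte markers listed for the check summed to 14155 to 19301 FPKM in PF, 12973 to 19470 with alcohol and 17516 to 19761 in AF with MNA. The 5 markers of sinusoidal endothelium, whose neighbours at the central vein are the Wnt source, summed to 20.6 to 29.4 FPKM in PF, 28.4 to 39.1 with alcohol and 33.5 to 36.6 in AF with MNA. The 5 cholangiocyte markers summed to 3.27 to 4.31 FPKM in PF, 4.86 to 9.12 with alcohol and 3.34 to 6.33 in AF with MNA. Every AF cholangiocyte sum lay above every PF sum, while the endothelial sums of PF and AF overlapped. Every AF with MNA endothelial sum lay above every PF sum, and the median log2 ratio of the 5 markers was 0.61, against -0.02 over all genes. None of the 5 endothelial markers and none of the 2 cholangiocyte markers above the filter passed in any comparison. Over all libraries the sums were 2.30 to 4.27 for central vein endothelium, 43.2 to 79.0 for Kupffer cells, 28.3 to 44.3 for stellate cells, 164 to 409 for red blood cells and 0.33 to 0.78 for T and B cells, with no listed marker at 0 in every library. Alas2, of red cell precursors, fell from 37.22, 43.33 and 41.38 FPKM in PF to 6.66, 18.21 and 8.71 in AF (log2 -1.86, adjusted p = 0.108), while the other red cell marker found, Hbb-bs, had a log2 ratio of 0.43 and did not pass. Of the 5 Kupffer cell markers 1 rose in AF against PF, Marco, a scavenger receptor at 0.803 FPKM in PF and 1.91 in AF (log2 1.25, past the threshold in 9 of 13 alternatives), while Clec4f and Vsig4 had log2 ratios of -0.64 and -0.52, and the list median was 0.05. Alas2 and Marco also passed in AF with MNA against PF (log2 -1.17 and 1.57). Of the 5 hepatocyte markers 2 rose in AF against PF, Tat (log2 1.24) and Cyp3a11 (1.43), where 1.95% of all genes rose. Ttr and Apoa1 went the other way, with log2 ratios of -1.01 to -0.41 and -0.73 to -0.43 over 14 alternatives. The list median was -0.06. Cyp3a11 also rose in AF with MNA against PF (1.75). The part of these markers in the results was not tested. Intronic lncRNA transcripts summed to 9433 FPKM in AF replicate 3 and 8934 in AF with MNA replicate 1, against 2477 to 4937 in the others, so those 2 libraries stood apart.

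RefSeq start sites on the mouse build GRCm38.p6 were matched for 7 of the 10 markers, all but Rhbg, Gls2 and Sds. The bases before the start are shown for the 3 markers whose windows held the letters of the TCF/LEF motif, through which β-catenin acts on its targets. The motif was searched as ATCAAAG or TTCAAAG on both strands from 250 bases before the start to 50 after it, and 8.65% of 32851 mouse windows of that length held one. Capitals mark the matches, and in Hal also GCGTG, the core of the site bound by the aryl hydrocarbon receptor, which 32.4% of windows held. The windows lie at chr2:102706188-102706437 on the plus strand for Slc1a2, at chr9:57683656-57683905 on the minus strand for Cyp1a2 and at chr10:93488518-93488767 on the plus strand for Hal, each written 5′ to 3′ along its gene.
Slc1a2: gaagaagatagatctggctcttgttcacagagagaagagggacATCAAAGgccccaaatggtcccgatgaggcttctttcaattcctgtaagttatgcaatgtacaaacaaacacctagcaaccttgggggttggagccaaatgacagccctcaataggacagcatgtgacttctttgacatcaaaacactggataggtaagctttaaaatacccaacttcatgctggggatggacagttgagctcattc
Cyp1a2: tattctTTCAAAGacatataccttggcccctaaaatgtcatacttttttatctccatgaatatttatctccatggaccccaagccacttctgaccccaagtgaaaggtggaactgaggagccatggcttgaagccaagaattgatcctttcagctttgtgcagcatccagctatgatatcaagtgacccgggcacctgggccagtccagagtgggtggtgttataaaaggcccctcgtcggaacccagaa
Hal: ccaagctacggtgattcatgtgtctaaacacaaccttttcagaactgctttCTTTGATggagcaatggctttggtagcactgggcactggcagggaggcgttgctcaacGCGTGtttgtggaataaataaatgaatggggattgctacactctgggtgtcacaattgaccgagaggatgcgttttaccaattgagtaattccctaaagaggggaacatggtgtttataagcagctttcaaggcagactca

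The matches stood at -207 in Slc1a2, at -244 in Cyp1a2 and, on the opposite strand, at -199 in Hal, so both pericentral genes and a periportal gene carried one. The windows of Glul, Oat, Axin2 and Cyp2f2 held neither form of these letters. The Slc1a2 window lies before a RefSeq start inside the gene, which GENCODE places at chr2:102658659-102790784, and not at the gene's first base. A match of letters is a description and not a bound site.

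In PF livers the markers spanned a wide range of levels. Cyp2f2, Glul and Cyp1a2 led, with means of 356, 347 and 317 FPKM and ranges that overlapped from each to the next. Oat followed at 179 ± 51.2 FPKM (SD, n = 3). Hal at 35.5 ± 9.06 and Gls2 at 29.8 ± 6.78 could not be placed in order beyond their spread, and Sds at 15.6 ± 6.09 overlapped Slc1a2 at 8.78 ± 1.31. Axin2, a negative feedback target of Wnt signalling, was lowest at 2.21 ± 0.252. The order of the strongly expressed markers differed in AF livers, where every Cyp1a2 value lay above every Glul, Cyp2f2 and Oat value.

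**Figure D1:**
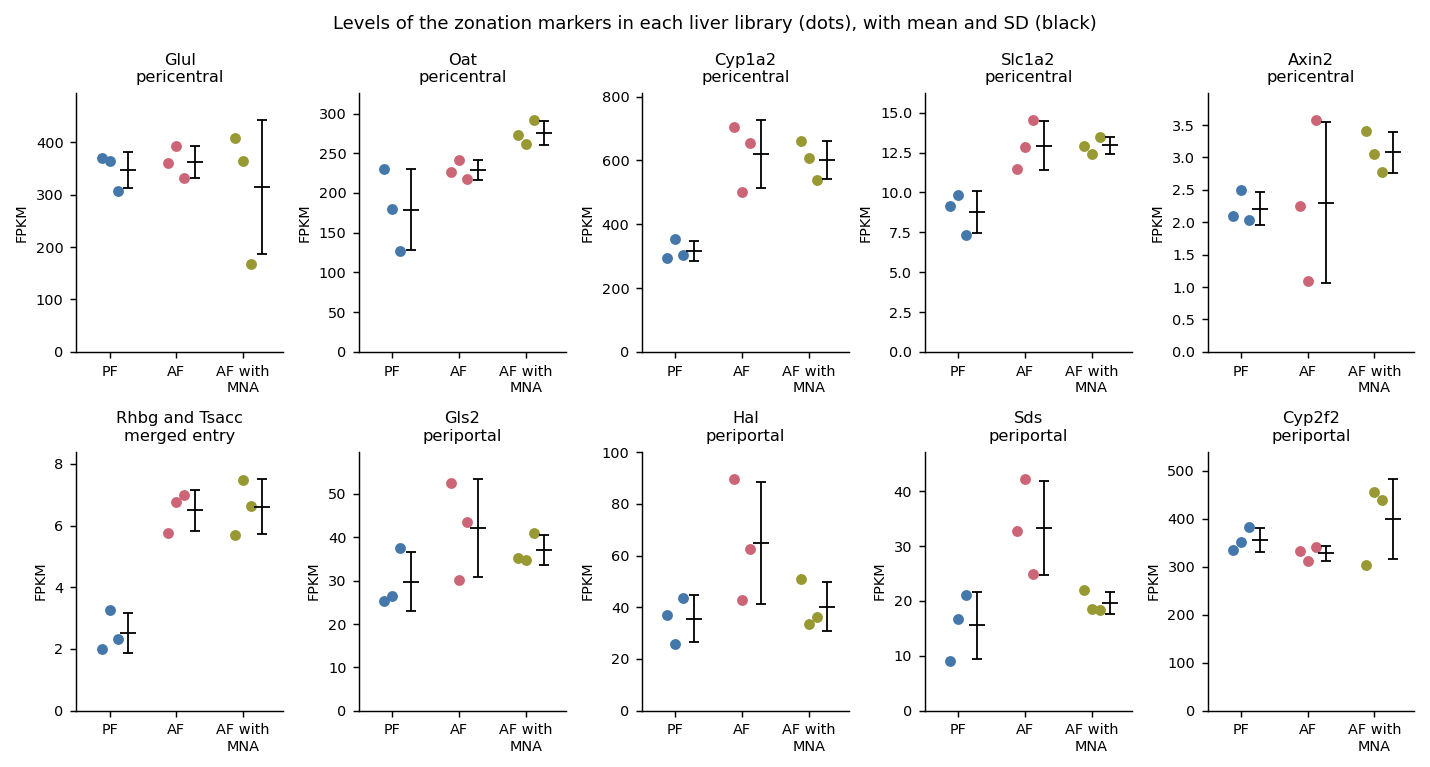
FPKM (y axis, linear from 0) of each zonation marker and of the entry that merges Rhbg with Tsacc, in the 3 libraries of PF, AF and AF with MNA (dots, replicates 1 to 3 from left to right), with the group mean and SD in black. Cyp1a2, Slc1a2, Sds and the merged entry lie higher in every AF library than in any PF library, while Glul and Cyp2f2 overlap.

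The first comparison asked how alcohol feeding moved the zonation markers. The threshold was adapted from the one that the methods give for lncRNAs. It asked for an unadjusted p under 0.05 with a ratio of mean FPKMs above 2 or below its inverse (log2 ratio past 1). Of the 9 markers, only Sds passed it, where 4.3% of the 12268 genes tested passed and 1.95% passed as higher. Cyp1a2 and Slc1a2 lay higher without overlap but under the fold limit. Groups did not overlap, with AF higher, for 3 of 9 markers and for 8.18% of all genes. No marker had a Benjamini-Hochberg adjusted p under 0.05 in limma, the lowest being 0.127 for Cyp1a2, and 0.326% of genes had one. An unadjusted p under 0.05 was reached by 4 of 9 markers (Cyp1a2, Slc1a2, Hal and Sds) and by 11.7% of genes. The median log2 ratio was 0.36 over the 5 pericentral and 0.68 over the 4 periportal markers, against -0.03 over all genes tested, and 8 of the 9 ratios were above 0.

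Cyp1a2, a cytochrome P450 that oxidises caffeine and aromatic amines (chr9:57676937-57683703), read 294.65, 352.77 and 302.22 FPKM in PF and 703.81, 500.76 and 653.03 in AF. The lowest AF library stood well above the highest PF library. The ratio of the means was 1.96-fold (log2 0.97), with a difference of 0.96 ± 0.19 (SE) on the log2(FPKM + 1) scale and adjusted p = 0.127. The ratio missed the fold limit narrowly, and it passed without PF replicate 2 (log2 1.05), without AF replicate 2 (1.10) and with libraries scaled to equal medians (1.02). Its unadjusted p stayed under 0.05 in 17 of 17 settings.

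Slc1a2, the glutamate transporter GLT-1 that feeds glutamine synthesis in the pericentral rim, read 9.16, 9.86 and 7.32 FPKM in PF and 11.49, 12.82 and 14.51 in AF. All AF values were higher, by 1.47-fold in the means (log2 0.56, adjusted p = 0.304). Oat, ornithine aminotransferase (chr7:132557478-132576398), read 229.78, 179.21 and 127.47 FPKM in PF and 226.59, 242.05 and 217.95 in AF. Its PF livers were spread widely and PF replicate 1 lay inside the AF range, so the log2 ratio of 0.36 was not separated from the spread (adjusted p = 0.572). Without PF replicate 3 the Oat ratio was 0.16. Without PF replicate 1 it was 0.58, with an unadjusted p then under 0.05.

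Glul, glutamine synthetase and the defining gene of the pericentral rim (chr1:153899944-153909723), read 368.91, 364.16 and 306.54 FPKM in PF and 360.46, 393.2 and 331.92 in AF. The groups overlapped, with a log2 ratio of 0.06 and a 95% interval of the difference from -0.31 to 0.44 on the log2(FPKM + 1) scale (adjusted p = 0.91). Axin2 (chr11:108920349-108950783) read 2.09, 2.5 and 2.04 FPKM in PF and 2.25, 1.09 and 3.57 in AF. The AF values enclosed those of PF, the lowest and the highest of the 6 libraries both being AF, and the interval of the difference ran from -0.70 to 0.64. Without AF replicate 3, one of the libraries that stood apart, the log2 ratio was -0.40 in place of 0.06, and without AF replicate 2 it was 0.40.

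Among periportal markers, Sds, serine dehydratase, which turns serine into pyruvate for gluconeogenesis (chr5:120476526-120483932), read 9.01, 16.71 and 21.04 FPKM in PF and 32.83, 42.17 and 24.98 in AF. Sds rose 2.14-fold (log2 1.10, adjusted p = 0.307), and no AF library reached down to the PF range. The call was lost without PF replicate 1 (log2 0.82), without AF replicate 2 (0.89, the unadjusted p then just above 0.05) and in the model with the Ballgown library-size covariate, with the direction kept. Hal, histidine ammonia-lyase, the first enzyme of histidine breakdown (chr10:93488768-93519304), read 37.1, 25.78 and 43.69 FPKM in PF and 89.47, 42.79 and 62.36 in AF. AF replicate 2 lay below PF replicate 3, so the groups overlapped, and the 1.83-fold ratio (log2 0.87, adjusted p = 0.39) stayed under the fold limit. It passed without AF replicate 2 (log2 1.10) and without PF replicate 3 (1.05). The unadjusted p of Hal was under 0.05 in 12 of 17 settings. It was above 0.05 without AF replicate 1 (log2 0.57), PF replicate 2 (0.68), PF replicate 1 (0.90) or AF replicate 3 (0.90) and in the Ballgown model.

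Gls2, the liver glutaminase that releases ammonia for urea synthesis (chr10:128194457-128210004), read 25.2, 26.51 and 37.55 FPKM in PF and 52.54, 30.04 and 43.6 in AF. AF replicate 2 lay within the PF range, and the log2 ratio of 0.50 had adjusted p = 0.532. Cyp2f2, a cytochrome P450 and a standard periportal marker (chr7:27119909-27133660), read 334.19, 351.4 and 382.56 FPKM in PF and 333.39, 311.02 and 340.55 in AF. It was the only marker with a ratio below 1, a log2 ratio of -0.12 whose interval ran from -0.46 to 0.22 (adjusted p = 0.801). The 3 enzymes of amino acid breakdown had log2 ratios of 0.50 to 1.10, and whether they differed from Cyp2f2 was not tested.

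Rhbg, an ammonium transporter of the pericentral rim (chr3:88242874-88254709, minus strand), could be followed only in the entry that merges it with Tsacc and Gm38392. This entry was added to the markers after the values were seen. It read 2.0, 3.26 and 2.31 FPKM in PF and 5.75, 6.76 and 7.0 in AF, without overlap. The entry rose 2.58-fold (log2 1.37, adjusted p = 0.0803), but how much of it came from Rhbg was not tested. With this entry counted, 2 of 10 would have passed.

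**Figure D2:**
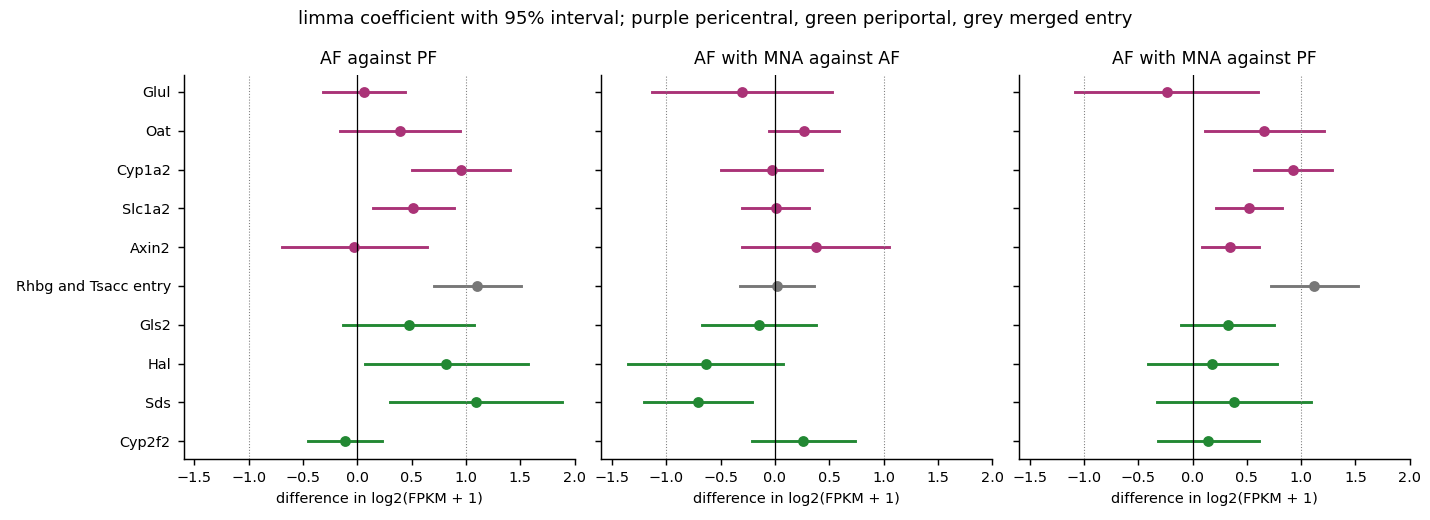
Difference between groups in log2(FPKM + 1) as fitted by limma (x axis, dots) with 95% intervals (lines) for each marker (y axis) in the 3 comparisons, which share libraries; purple marks pericentral genes, green periportal genes and grey the entry merging Rhbg with Tsacc, and dotted lines stand at -1 and 1. In AF against PF the intervals of Cyp1a2, Slc1a2, Hal, Sds and the merged entry lie above 0, and in AF with MNA against AF only that of Sds lies off 0.

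The second comparison set AF with MNA against AF. None of the 9 markers passed the threshold, against 1.98% of 12214 genes, and none had an adjusted p under 0.05, against 0.0491%. A single marker, 1 of 9, had an unadjusted p under 0.05, against 5.22% of genes. That marker was Sds, at 21.97, 18.58 and 18.3 FPKM in AF with MNA. Each of these values was below the lowest AF value of 24.98, and lay within the PF range or just above it, while 4.58% of genes lay lower without overlap. The mean was 0.589 of the AF mean (log2 -0.76, adjusted p = 0.94), under the fold limit. Because the AF libraries stand in both comparisons, the higher Sds level in AF against PF and the lower one here are not independent. With AF replicate 3 and AF with MNA replicate 1 both left out, a setting added once the values were known, Sds passed (log2 -1.02), and its unadjusted p was under 0.05 in 18 of 18 settings.

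Hal read 50.93, 33.37 and 36.34 FPKM in AF with MNA, overlapping AF, with a log2 ratio of -0.69 (adjusted p = 0.94). Gls2 at 35.28, 34.79 and 41.01 FPKM lay inside the AF range (log2 -0.18). Cyp2f2 at 304.61, 455.17 and 438.93 FPKM had a log2 ratio of 0.28, and its libraries were the most spread of the 3 groups. The median log2 ratio of the 4 periportal markers was -0.44, against 0.01 over all genes.

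The pericentral markers had a median log2 ratio of 0.00 between AF with MNA and AF. Oat at 273.22, 262.21 and 291.22 FPKM was the single marker that lay higher without overlap (log2 0.27, adjusted p = 0.94), where 5.53% of genes did. Cyp1a2 at 659.92, 605.84 and 539.93 FPKM and Slc1a2 at 12.92, 12.44 and 13.49 kept log2 ratios of -0.04 and 0.00, with intervals of the difference from -0.49 to 0.43 and from -0.30 to 0.31. Glul at 408.39, 363.89 and 168.32 FPKM held one low library, replicate 3. With it the log2 ratio was -0.21 and without it 0.09. Axin2 at 3.41, 3.05 and 2.78 FPKM lay within the wide AF range (log2 0.42, adjusted p = 0.97). Its log2 ratio was 0.88 without AF replicate 3, with an unadjusted p then under 0.05, and 0.08 without AF replicate 2. The entry merging Rhbg with Tsacc, at 5.71, 7.49 and 6.63, had a log2 ratio of 0.02.

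AF with MNA against PF compared both treatments together with the control diet. None of the 9 markers passed the threshold, against 3.89% of 12276 genes, and none had an adjusted p under 0.05, against 0.432%. Of the 5 pericentral markers, 4 lay higher without overlap, and no periportal marker did, while 9.54% of genes lay higher without overlap. These were Cyp1a2 (log2 0.93, adjusted p = 0.0907), Slc1a2 (0.56, adjusted p = 0.182), Axin2 (0.48, adjusted p = 0.271) and Oat (0.62, adjusted p = 0.287). The same 4 of 9 markers had an unadjusted p under 0.05, against 14.5% of genes. That p stayed under 0.05 in 17 of 17 settings for Cyp1a2 and for Slc1a2, in 13 for Axin2 and in 11 for Oat. Without PF replicate 2, Cyp1a2 passed the threshold (log2 1.01), so the count was then 1.

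The remaining markers were not separated from PF. Sds had a log2 ratio of 0.33 (adjusted p = 0.606) and Gls2 one of 0.32 (adjusted p = 0.474). Hal stood at 0.18, Cyp2f2 at 0.17 and Glul at -0.14, each with an interval across 0. The merged Rhbg and Tsacc entry rose 2.62-fold (log2 1.39, adjusted p = 0.0783). Medians were 0.56 for pericentral and 0.25 for periportal markers against -0.02 over all genes. Whether the 2 zones differed in their response was not tested.

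To set the zones against each other within a liver, the mean log2(FPKM + 1) of the 5 pericentral markers was taken minus that of the 4 periportal markers. The difference was 0.49, 0.41 and -0.31 in the PF libraries, -0.20, 0.04 and 0.19 in those of AF, and 0.50, 0.47 and 0.17 in AF with MNA. PF replicate 3, with the lowest Oat and the highest Gls2, Hal, Sds and Cyp2f2 of its group, stood apart from the other PF livers. Group means were 0.20 ± 0.44 (SD), 0.01 ± 0.20 and 0.38 ± 0.18, and the groups overlapped. With a library left out the PF mean ran from 0.049 to 0.45 and the AF mean from -0.079 to 0.11. The PF mean was 0.45 without PF replicate 3, when the remaining PF values lay above all AF values. The size depends on the genes averaged, since without the low-level Axin2 and Slc1a2 the means were 2.43, 2.33 and 2.62.

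**Figure D3:**
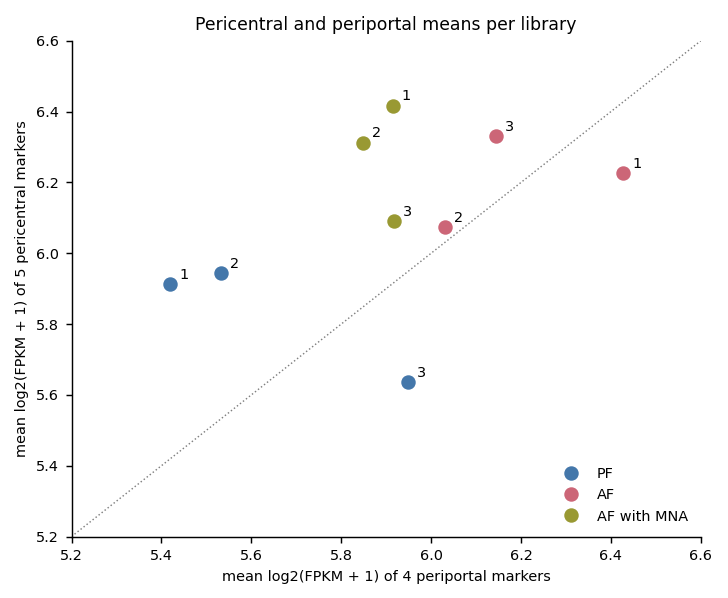
Mean log2(FPKM + 1) of the 4 periportal markers (x axis) against that of the 5 pericentral markers (y axis) in each liver, numbered by replicate, with colours for PF, AF and AF with MNA; the dotted line marks equal means. AF replicate 1 and PF replicate 3 lie below the line, and every other library of the 3 groups lies above it.

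Genes with related zonal roles were counted by the same threshold. Of 21 other pericentral genes tested, 2 rose and 1 fell in AF against PF, where 4.3% of all genes passed and 1.95% as higher, and the median log2 ratio was -0.03. Cyp2a5, a cytochrome P450 that metabolises coumarin and nicotine, stood at 168 ± 18.9 FPKM in PF and 1350 ± 59.0 in AF (8.03-fold, adjusted p = 0.00215), and at 1222 ± 250 in AF with MNA. Cyp2c29, a cytochrome P450 inducible by drugs, stood at 49.6 ± 15.9 FPKM in PF, 463 ± 23.6 in AF (9.33-fold, adjusted p = 0.0073) and 412 ± 102 in AF with MNA. Both belong to families of near-identical genes between which fragments may be shared, so their levels are uncertain. Cyp7a1, the rate-limiting enzyme of bile acid synthesis, fell from 24.53, 65.85 and 25.96 FPKM in PF to 10.09, 1.13 and 4.94 in AF (log2 -2.85, adjusted p = 0.198). Without PF replicate 1 or PF replicate 2, 3 genes of the list rose in AF against PF. Without AF replicate 3 a second gene fell, and in the Ballgown model none did, here or in AF with MNA against PF. Cyp2e1, the main ethanol-oxidising P450, had by contrast 3326 ± 370 FPKM in PF and 2880 ± 232 in AF (log2 -0.21, adjusted p = 0.722).

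In AF with MNA against PF, 4 of these 21 genes rose and 1 fell, against 3.89% of all genes past the threshold, adding Lhpp (log2 1.17) and Nr1i3, the receptor CAR that induces drug-metabolising P450 genes (1.21), to Cyp2a5, Cyp2c29 and Cyp7a1. The count of risers was 2 without PF replicate 1 and in the Ballgown model, and 3 without PF replicate 3 or AF with MNA replicate 2 and with all 9 libraries. Nr1i3 passed in 9 of 14 alternatives. None passed in AF with MNA against AF, while 2 rose there without AF replicate 3 and 1 fell without AF replicate 3 and AF with MNA replicate 1.

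Of 21 other periportal genes tested, 2 rose in AF against PF, against 1.95% of all genes, and the median log2 ratio was 0.25. These were Cyp17a1, a steroid hydroxylase, at 5.05 ± 2.88 FPKM in PF and 16.3 ± 8.14 in AF (log2 1.69, adjusted p = 0.359), and Apoa4, a lipoprotein component, at 60.7 ± 12.3 and 130 ± 55.9 (log2 1.10, adjusted p = 0.313). Without AF replicate 1 neither passed, and without PF replicate 1, PF replicate 3 or AF replicate 3 only 1 gene rose. A gene fell without PF replicate 1 and without AF replicate 3, and none passed in the Ballgown model. Named urea cycle genes had smaller ratios, with Cps1, its entry enzyme, at log2 0.48 (adjusted p = 0.467), Ass1 at 0.45 (adjusted p = 0.46) and Asl at 0.61 (adjusted p = 0.388). Arg1, also of this cycle, had log2 ratios of 0.48 to 0.83 over 14 alternatives and passed in 0 of them. Pck1, an enzyme of gluconeogenesis, stood at log2 0.33 (adjusted p = 0.618). Alb, albumin, had the highest level of the list and a log2 ratio of -0.06. None of the 21 passed in either comparison of AF with MNA, but against PF 2 rose without AF with MNA replicate 2, 1 rose in the Ballgown model and 1 fell without PF replicate 1, and against AF 1 rose without AF with MNA replicate 3.

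Among the partners of the markers in glutamine, ammonia and amino acid metabolism, 3 of 25 rose in AF against PF, against 1.95% of all genes, and none fell. Sdsl, the serine dehydratase-like paralog of Sds, read 1.16, 2.01 and 1.89 FPKM in PF and 4.11, 5.38 and 2.80 in AF (log2 1.28, adjusted p = 0.228), while its difference on the log2(FPKM + 1) scale was 0.91. Tat, tyrosine aminotransferase, read 114.89, 241.26 and 136.59 FPKM in PF and 386.93, 581.14 and 197.15 in AF (log2 1.24, adjusted p = 0.393). Slc7a2, a carrier of cationic amino acids, read 20.71, 19.55 and 17.12 FPKM in PF and 40.72, 66.78 and 24.11 in AF (log2 1.20, adjusted p = 0.345). In Sdsl, Tat and Slc7a2 alike, AF replicate 2 was the highest of its group and AF replicate 3 the lowest, as in Sds.

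The count for these partners fell to 1 without PF replicate 3, AF replicate 1 or AF replicate 2, was 2 without PF replicate 1 and reached 4 without AF replicate 3. No adjusted p in the list was under 0.05. None of the 25 passed in AF with MNA against AF, but 4 fell there without AF replicate 3 and 1 without AF with MNA replicate 1. Against PF none passed, and 1 fell without PF replicate 2. In AF with MNA, Tat read 300.63, 126.48 and 196.66 FPKM and Slc7a2 30.09, 20.84 and 27.48. Partners of high level that did not pass included Glud1, glutamate dehydrogenase (216 ± 29.0 FPKM in PF and 181 ± 14.7 in AF, adjusted p = 0.603), and Slc38a3, a glutamine transporter (201 ± 36.8 and 173 ± 30.8, adjusted p = 0.738).

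**Figure D4:**
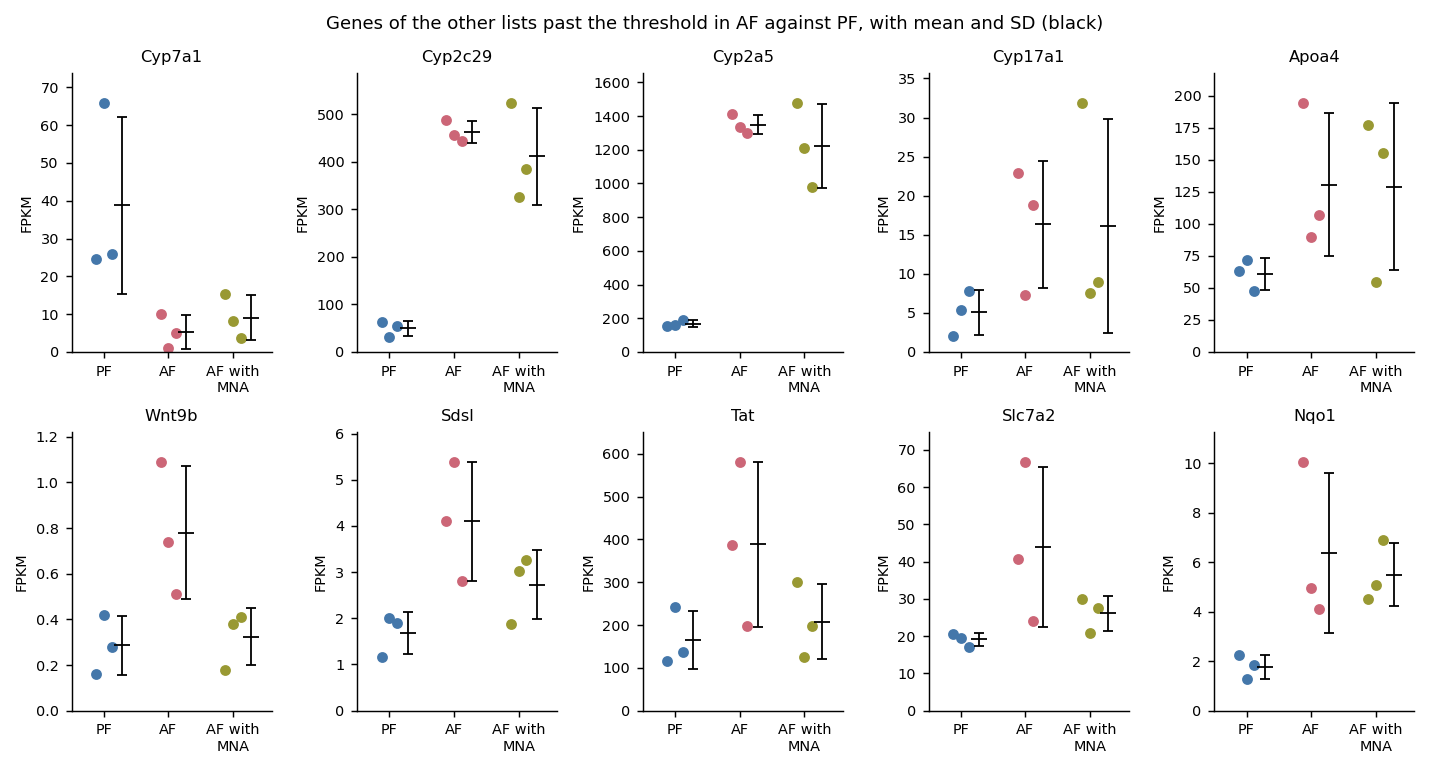
FPKM (y axis, linear from 0) in the 3 libraries of PF, AF and AF with MNA (dots) for the 10 genes of the related lists past the threshold in AF against PF, with group mean and SD in black. Cyp2a5 and Cyp2c29 are several-fold higher in all AF and AF with MNA libraries, and Sdsl, Tat and Slc7a2 are highest in AF replicate 2.

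Of the 34 Wnt and β-catenin pathway genes tested, 1 rose in AF against PF, a share near the 1.95% of all genes that did, and 2 fell without AF replicate 3. Wnt9b, a ligand made by central vein endothelium, read 0.16, 0.42 and 0.28 FPKM in PF, 1.09, 0.74 and 0.51 in AF (log2 1.44, adjusted p = 0.359) and 0.18, 0.38 and 0.41 in AF with MNA (log2 -1.27 against AF, adjusted p = 0.94). Wnt9b cleared the filter of 0.5 FPKM only through AF, its means in the other groups being 0.287 and 0.323, so both calls are values at the limit of the filter. Where it was tested the first ratio stayed between log2 1.16 and 1.83, and the call was lost without PF replicate 1 or PF replicate 3 and in the Ballgown model. Without AF replicate 1 or AF replicate 2, and with a filter of 2 FPKM, the gene was not tested. The second call was lost without AF replicate 2 or any 1 AF with MNA library, with a replicate block and in the Ballgown model, and the gene was not tested there without AF replicate 1. In AF with MNA against AF, 0 of the 34 genes rose and 2 fell, against 1.98% of all genes past the threshold. Without AF replicate 3, 3 genes of the list rose there. In AF with MNA against PF, 2 of 33 rose and 1 fell, against 3.89% of all genes. Ctnnb1, β-catenin itself, stood at 22.9 ± 0.427 FPKM in PF, 22.9 ± 1.04 with alcohol and 23.8 ± 2.54 in AF with MNA. Notum, a secreted inhibitor of Wnt ligands, and Dvl1, an intracellular transducer, also had log2 ratios close to 0 in AF against PF, at -0.09 and -0.08. Fzd8, a Wnt receptor, read 4.81, 2.80 and 5.75 FPKM in PF and 2.37, 1.73 and 6.38 in AF and was listed at 0 in all 3 AF with MNA libraries, so no fold is given (adjusted p = 0.0173 against PF and 0.456 against AF). It entered these comparisons only through the groups where it was detected, and against AF it was not tested with a filter of 2 FPKM. The receptor Fzd4 (log2 1.09) and the signal transducer Dvl2 (1.08) rose in AF with MNA against PF, and neither passed without PF replicate 3. In AF with MNA against AF, alternatives gave log2 0.52 to 1.20 for Fzd4, past the threshold in 2 of 15. For Dvl2 they gave 0.15 to 0.67, past it in 0 of 14. Lgr5 and Sp5, targets of the pathway in pericentral cells, had log2 ratios of 0.06 and -0.30 in AF against PF and did not pass.

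Cyp1a2 is a target of the aryl hydrocarbon receptor as well as a zonal gene. Of 7 tested genes of that pathway 1 rose in AF against PF, against 1.95% of all genes. Nqo1, a quinone reductase, read 2.23, 1.26 and 1.84 FPKM in PF, 10.05, 4.94 and 4.09 in AF (log2 1.84, adjusted p = 0.19) and 4.50, 5.08 and 6.91 in AF with MNA (1.63 against PF, adjusted p = 0.0903). Without AF replicate 3 the count was 2, and in the Ballgown model it was 0. None passed in AF with MNA against AF, while 1 gene fell there without AF replicate 3, alone or together with AF with MNA replicate 1, and in the Ballgown model. The receptor gene Ahr stood at 6.37 ± 0.372 FPKM in PF, 5.65 ± 0.572 in AF (log2 -0.17, adjusted p = 0.672) and 3.93 ± 0.251 in AF with MNA. Its log2 ratio of AF with MNA to PF was -0.70 (adjusted p = 0.0907) and did not pass the fold limit. In AF with MNA against AF it was -0.58 to -0.44 over 15 alternatives, past the threshold in 0. The unadjusted p was under 0.05 in each of these, which 5.22% of genes had in the main setting. The receptor chaperones Hsp90ab1 and Ptges3 had log2 ratios of -0.48 and 0.16 in AF against PF, under the fold limit. Tiparp, a feedback target of the receptor, had a log2 ratio of 1.04 in AF against PF with adjusted p = 0.537. Cyp1a1, its classical target, was not among the genes tested.

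The deposited table of long noncoding RNAs held 7 transcripts within the marker loci, 6 of them known and transcribed from the opposite strand. The libraries keep the strand, but how the levels used it is not given in the sources used here. Gm15690, inside Sds at chr5:120479842-120480903, read 1.07, 2.14 and 5.87 FPKM in PF, 6.63, 3.84 and 6.41 with alcohol and 5.97, 2.37 and 1.61 in AF with MNA, with all groups overlapping. Gm15883, inside Cyp2f2 at chr7:27124481-27130674, read 7.15, 5.76 and 8.12 FPKM in PF and 4.07, 3.50 and 8.94 in AF. Of the 3 Gm13872 transcripts inside Slc1a2, only the longest exceeded 1 FPKM, with a range from 0 to 6.00, and Gm11670 inside Axin2 did not exceed 0.16. No such transcript was tested.

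Circular RNAs of the markers were rare. There were 6 from 4 markers (Gls2, Cyp1a2, Axin2 and Slc1a2), with 28 back-splice junction reads over the 9 libraries, 12 from PF, 11 from AF and 5 from AF with MNA. A Gls2 circle of 3 exons at chr10:128207298-128208667 gave 5 reads in PF replicate 1, 4 in AF replicate 1 and 5 in AF replicate 2 and none elsewhere. The Cyp1a2 circle at chr9:57678987-57680339 gave 6 reads in PF replicate 3 and 2 in AF with MNA replicate 3. These counts were not tested between groups, and a count of 0 in a library allows up to 3 reads, counting error only.

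Finally, the genes whose pattern over the 9 libraries was most like each zone's were listed among the 9980 that averaged 1 FPKM or more. For the pericentral markers these were Bri3 (Pearson r = 0.94), Serpind1 (0.94), Fbxw4 (0.93), Idh2 (0.91) and Mreg (0.91). For the periportal markers they were Arfip2 (0.93), Esd (0.92), Tinagl1 (0.92), Nub1 (0.91) and Cdh5 (0.91). Serpind1, the gene of heparin cofactor II, stood at mean levels of 165, 206 and 216 FPKM in PF, AF and AF with MNA, and Idh2, mitochondrial isocitrate dehydrogenase, at 17.7, 29.7 and 30.7. The points share libraries and depth, and the genes were picked for their likeness, so these values are descriptive.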

How the data were processed

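Ribosomal RNA-depleted, strand-specific paired-end libraries of mouse liver were made from 9 mice, 1 library each, and sequenced on one platform. FPKM values of genes and lncRNA transcripts were deposited as the authors obtained them with StringTie 1.3.4. The submitters' processing notes also name cutadapt 1.9, HISAT2, TopHat, FastQC and edgeR without a role, and the genome build is not given in the sources used here. Coordinates matched GRCm38 (GENCODE M21). The deposited lncRNA table by the authors also holds read coverage as a signal not scaled for depth, and a CPC score and a CNCI score per assembled transcript, which were not used for values. The authors deposited circRNA counts, which are reads across back-splice junctions, and their normalized signal is the count times a constant of the library, from which total reads were recovered. No gene counts were given, so precision was judged from replicate spread.

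Gene entries with a known transcript, a name and an average of 0.5 FPKM or more in the 6 libraries of a comparison were tested as log2(FPKM + 1) with limma 3.58.1 (lmFit, eBayes with trend, two-sided, Benjamini-Hochberg adjustment) in R 4.3.3. All 9 markers with an entry passed this filter. Fold changes are ratios of group mean FPKMs, and limma differences are on the log2(FPKM + 1) scale, which understates changes of low genes. Calls follow the threshold that the paper gives for lncRNAs, a p under 0.05 and, in either direction, a log2 fold change past 1. Here it was applied to genes, with the p taken as unadjusted and the fold change as the ratio of mean FPKMs. An exact permutation test of 3 against 3 libraries cannot go below p = 0.1. Nothing says whether replicates shared a cage or a batch, so p-values measure only the spread between these samples. Replicate numbers did not pair the samples (correlations of deviations from -0.08 to 0.06). The markers and gene lists were chosen with earlier results of these data known. Named genes were all markers, the genes of each related list past the threshold (up to 8 by p), up to 3 of the highest-level genes of lists with fewer than 3 such, and the 5 genes most alike in pattern. Cyp2e1, Glud1, Slc38a3, Ass1, Asl, Arg1, Lgr5, Sp5, Tiparp, Ahr, Ttr and Apoa1 were added after their values were seen. Some genes of the lists are not reported here by name. The zone difference was planned over 6 pericentral genes and computed over 5, as Rhbg has no entry. Further entries under the names Slc1a2, Gls2 and Cyp2f2, each of 1 assembled transcript at no more than 2.03 FPKM, were left out. Scripts were tested on simulated data. Python 3.11.15, pandas 2.3.3, numpy 2.4.6 and matplotlib 3.10.9 were used. Alternatives were another pseudocount (0.1), filters (any value above 0, mean of 2 FPKM), equal medians, no trend, all 9 libraries, a replicate block, the Ballgown library-size covariate without moderation, the limma coefficient as fold change, adjusted p, and each library left out.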

Additional observations from a re-analysis of the deposited data

How the results depend on the processing

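The count of markers past the threshold in AF against PF was 1. It was 0 with an adjusted p under 0.05 and in the Ballgown model, 2 with equal medians, 2 with the entry merging Rhbg and Tsacc counted, and 0 to 2 with a library left out (0 without PF replicate 1, 2 without PF replicate 2, PF replicate 3 or AF replicate 2). In AF with MNA against AF it was 0, and 1 with AF replicate 3 and AF with MNA replicate 1 both left out. In AF with MNA against PF it was 0, then 0 to 1 with a library left out (1 without PF replicate 2), and 1 with the merged entry counted. Leaving out those 2 libraries together and counting the merged entry were chosen after seeing the data. With the replicate number as a replicate block the counts were 1, 0 and 0 as without it, and the block changed no marker's call. Among the related lists it removed the Wnt9b call in AF with MNA against AF, and with it 1 gene of the aryl hydrocarbon receptor list fell in that comparison and 2 Wnt pathway genes in place of 1 fell in AF with MNA against PF. Without Axin2 and Slc1a2 the zone difference was 2.43 in PF, 2.33 in AF and 2.62 in AF with MNA.

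Log2 ratios that crossed 0 were all of genes not past the threshold. Axin2 in AF against PF was -0.028 as limma's coefficient, and Slc1a2 in AF with MNA against AF was -0.017 with equal medians. With a library left out, ratios in AF against PF ranged from -0.019 to 0.12 for Glul and from -0.40 to 0.40 for Axin2. In AF with MNA against AF, with 1 library or the pair named above left out, they ranged from -0.50 to 0.094 for Glul, -0.17 to 0.061 for Cyp1a2, -0.078 to 0.093 for Slc1a2, -0.38 to 0.0081 for Gls2 and -0.076 to 0.17 for the merged entry. In AF with MNA against PF they ranged from -0.38 to 0.16 for Glul and -0.027 to 0.36 for Hal. Of the single-gene values under alternatives, 460 kept their direction and side of the threshold, 17 changed sign, 7 gained and 6 lost the call, and the cause was not tested. The tables give no gene counts, so a small difference in Axin2 or Wnt9b, at a few FPKM or less, could not be separated from counting error.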
